A study of Homo sapiens with 2 samples.

Results

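Nonsense-mediated decay (NMD) removes mRNAs on which a ribosome terminates too early, and 9 genes that encode its core factors were examined in the transcriptome of a human cell line. These were UPF1, UPF2, UPF3A and UPF3B, then SMG1, SMG8 and SMG9, and finally SMG5 and SMG6. They were chosen by name, and all listed transcripts that GENCODE v44 assigns to them were taken, which gave 92 of 206696 transcripts. All 9 of the 59026 annotated genes were above 0 in both libraries. Of the 92 transcripts, 50 were above 0 in both libraries, 25 were at 0 in a single library and 17 were at 0 in both. A mean of at least 10 normalised counts was reached by 48 of them.

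The libraries came from HEK293 Flp-In T-Rex cells, a derivative of the human embryonic kidney line HEK293 that carries a single integration site for a transgene under tetracycline control. No treatment and no inserted transgene are given for these cells. Their rRNA-depleted total RNA was sequenced, so unspliced and noncoding RNA was captured beside mRNA. There was 1 group of 2 libraries, replicate 1 and replicate 2, and the labels do not say whether they were separate cultures, so the SDs may hold technical spread only. With 1 group there was no contrast between conditions, and the smallest two-sided p of a sign-flip test on 2 libraries is 0.5, so no p-value is given. Replicate 1 held 25158962 estimated counts and replicate 2 held 27143860. All 7 markers fixed for HEK293 reached at least 10 normalised counts in both libraries, PAX2 being the lowest with 33.9 and 50.1. Of 5 markers of other cells, PTPRC, ALB and TYR were at 0, PECAM1 was at 1.06 and 0.927, and COL1A1 was at 155.6 and 291, and its part in the results below was not tested.

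In NMD, the ATP-dependent RNA helicase UPF1 is recruited to a terminating ribosome. UPF2 and the paralogues UPF3A and UPF3B link UPF1 to exon junction complexes, which mark former splice sites downstream of a stop codon. The kinase SMG1, held in check by SMG8 and SMG9, phosphorylates UPF1. Phosphorylated UPF1 then recruits SMG6, an endonuclease that cuts the mRNA near the stop codon, and SMG5, an adaptor that helps to bring in deadenylation and decapping. Several NMD factor mRNAs are themselves known to be NMD targets, which forms a feedback loop.

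4 of the genes had a coding segment that was present in one abundant transcript and absent from another, and these segments are shown because each one separates abundant coding transcripts of its gene. The sequences are in mRNA sense from GENCODE v44 transcripts on GRCh38, with the alternative segment in capitals and 20 nt of each flanking exon in lower case. The UPF1 segment lies at chr19:18853072-18853104 (plus strand), that of UPF3A at chr13:114286302-114286400 (plus strand), that of UPF3B at chrX:119840646-119840684 (minus strand) and that of SMG1 at chr16:18896052-18896207 (minus strand).
UPF1: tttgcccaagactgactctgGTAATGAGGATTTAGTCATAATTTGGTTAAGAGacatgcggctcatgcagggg
UPF3A: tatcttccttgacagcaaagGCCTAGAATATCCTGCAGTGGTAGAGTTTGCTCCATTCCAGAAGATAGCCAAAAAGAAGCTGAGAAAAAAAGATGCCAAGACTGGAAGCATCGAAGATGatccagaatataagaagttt
UPF3B: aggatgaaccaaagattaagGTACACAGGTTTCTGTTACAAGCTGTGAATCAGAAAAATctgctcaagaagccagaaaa
SMG1: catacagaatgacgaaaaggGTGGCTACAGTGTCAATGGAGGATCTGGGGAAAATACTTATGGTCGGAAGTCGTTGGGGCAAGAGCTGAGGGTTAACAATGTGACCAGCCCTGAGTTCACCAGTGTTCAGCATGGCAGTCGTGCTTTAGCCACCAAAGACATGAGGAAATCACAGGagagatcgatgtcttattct

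All 4 segments were whole multiples of a codon, with 33 nt (11 amino acids) in UPF1, 99 nt (33 amino acids) in UPF3A, 39 nt (13 amino acids) in UPF3B and 156 nt (52 amino acids) in SMG1. In each case the reading frame was therefore kept with or without the segment. The compared transcripts also differed in annotated 5′ UTR length. With and without the segment, it was 209 and 251 nt in UPF1 and 39 and 12 nt in UPF3A. For UPF3B it was 35 and 70 nt. The shares below are therefore those of whole transcripts and not of the segment alone.

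The UPF1 segment begins with GT, the letters at the start of most introns, directly after the last base of the exon in the shorter form. It lies in the regulatory loop of the helicase core, and proteins with and without it are known as the long-loop and short-loop forms. UPF1-207, of 1129 codons, holds the segment and had 1588 normalised counts in replicate 1 and 1155 in replicate 2. UPF1-201, of 1118 codons, lacks it and had 1523 and 2621. The long-loop mRNA was thus slightly higher in replicate 1, where the interval given next includes an equal division, and the lower one in replicate 2. Its share of the coding counts was 51.0% in replicate 1, with an exact (Clopper-Pearson) 95% interval of 49.2 to 52.9%, and 30.6% in replicate 2, with an interval of 29.2 to 32.0%. The mean was 40.8% ± 14.5 (SD, n = 2), and the intervals, which cover counting error only, did not overlap. UPF1-207 and UPF1-201 share most of their sequence, and the intervals leave out the error of assigning shared reads. Whether the libraries differed beyond that error was not tested. The gene total differed far less between the libraries than this division did, at 3364 and 4004.

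The UPF3A segment encodes part of the region that contacts UPF2. UPF3A-202, which holds it, had 278.6 and 244.7 normalised counts, and UPF3A-201, which skips it, had 107.9 and 139.7. The form with the segment was the higher one in both libraries, with 72.1% of the coding counts in replicate 1 (interval 67.1 to 76.6%) and 63.7% in replicate 2 (interval 58.8 to 68.3%), or 67.9% ± 5.96 (SD, n = 2). Of 148 stretches of 50 nt in UPF3A-202 that touch the segment, 1 occurred in the transcripts of another gene. The junction of UPF3A-201 that skips the segment was not searched, so shared reads of that form were not tested.

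UPF3B showed an even division. UPF3B-201, with the segment, had 243.1 and 190.3 normalised counts, and UPF3B-202, without it, had 269.5 and 179.3. The form with the segment held 47.4% of the coding counts in replicate 1 (interval 42.9 to 52.0%) and 51.5% in replicate 2 (interval 46.5 to 56.5%). Both intervals include an equal division.

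For SMG1, the full-length SMG1-201 had 4788 and 3801 normalised counts, while SMG1-210, which skips the segment and is annotated without its start codon, had 997.0 and 1778. Over 4 coding transcripts with and 2 without it, the segment was on 80.7% of the coding counts in replicate 1 (interval 79.6 to 81.7%) and 67.1% in replicate 2 (interval 65.9 to 68.3%). With counts divided by length, its share was lower, at 69.2% in replicate 1 and 58.9% in replicate 2. SMG1-201 and SMG1-210 also differ in the 3′ UTR, of 4709 and 1809 nt, so the segment is not all that separates them. Of the 205 stretches of 50 nt in SMG1-201 that touch this segment, 174 also occur in other genes, so the division between the forms depended on how shared reads were assigned.

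**Figure D1:**
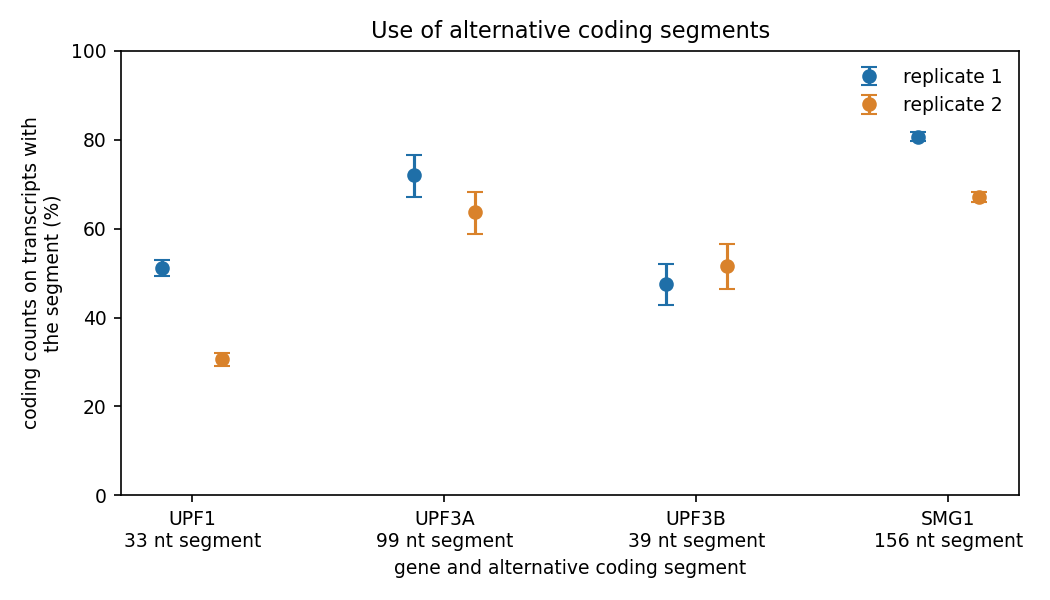
Share of coding counts (y axis, %) on transcripts that hold the alternative segment of UPF1, UPF3A, UPF3B or SMG1, with 1 point per library. Bars give the exact 95% interval, which covers counting error only and leaves out the error of assigning shared reads. The points of replicate 1 lie above those of replicate 2 for UPF1, UPF3A and SMG1, with intervals that do not overlap for UPF1 (51.0% and 30.6%) and SMG1 (80.7% and 67.1%).

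SMG9 differed in another way. SMG9-201 encodes 520 amino acids in 14 exons, and SMG9-211 reads past one of its splice sites, on the minus strand at chromosome 19, position 43732857, and ends after 495 amino acids. SMG9-201 had 259.5 and 275.5 normalised counts and SMG9-211 had 220.0 and 301.1, so each was the higher one in a different library.

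To ask how much of each factor these cells express, estimated counts were divided by transcript length and scaled to 1000000 in each library, since counts alone favour long transcripts. Between the genes, this level ran from 32.3 ± 0.799 for SMG1 to 6.47 ± 1.02 for SMG6 (SD, n = 2), a 4.99-fold range. The scale itself depends on the total, and another total multiplies every level by the same factor within a library. Without misc_RNA, ribozyme, snRNA and mitochondrial transcripts SMG1 had 69.1 and SMG6 13.9, and UPF2 was then the lowest with 13.8. In bulk RNA, fewer cells that express a gene and less RNA per cell cannot be told apart. Among 26370 genes of all classes, coding and noncoding, that reached 1 normalised count in each library, 90.7% had a lower level than SMG1 and 65.6% had a lower level than SMG6. The 15537 protein-coding genes with that minimum had a higher median level, of 7.69. The mean levels of UPF3B, UPF2 and SMG6 were below this median, and those of the other NMD factor genes were above it. A pair of genes was called different where replicates 1 and 2 ranked it alike and the gap between the means was wider than the SDs of both genes added together, which held for 27 of 36 pairs.

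Among the UPF genes, UPF1 (ENSG00000005007.14, chr19:18831959-18868230, plus strand) had a level of 28.2 in replicate 1 and 31.7 in replicate 2, or 29.9 ± 2.47. UPF3A (ENSG00000169062.15, chr13:114281601-114305817, plus strand) followed with 21.4 and 18.3. UPF1 was above UPF3A in both libraries, and the pair passed the call. UPF3B (ENSG00000125351.14, chrX:119834022-119852998, minus strand) had 8.91 and 5.81, and UPF2 (ENSG00000151461.20, chr10:11920022-12043170, minus strand) had 7.84 and 5.15. UPF2 and UPF3B, which bind each other, had overlapping values and did not pass the call. The UPF3A level was 2.40 times that of UPF3B in replicate 1 and 3.15 times in replicate 2, a log2 ratio of the means of 1.43.

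In the kinase complex, SMG1 (ENSG00000157106.18, chr16:18804860-18926408, minus strand) had a level of 32.9 and 31.7. SMG9 (ENSG00000105771.14, chr19:43727983-43754962, minus strand) had 22.9 and 32.7, or 27.8 ± 6.98, the widest spread of the 9 genes. SMG8 (ENSG00000167447.13, chr17:59209400-59215239, plus strand) had 14.5 and 12.4, below both SMG1 and SMG9 in each library. SMG1 and SMG9 changed places between the libraries and did not pass the call.

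Of the effectors, SMG5 (ENSG00000198952.8, chr1:156249224-156282825, minus strand) had a level of 23.4 and 27.1, and SMG6 (ENSG00000070366.14, chr17:2059839-2303785, minus strand) had 5.75 and 7.19. The levels of SMG5 and SMG6 did not overlap, and the pair passed the call.

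In the order of the mean levels, which was SMG1, UPF1, SMG9, SMG5, UPF3A, SMG8, UPF3B, UPF2 and SMG6, only 3 neighbouring pairs passed the call: SMG5 was above UPF3A, UPF3A above SMG8 and SMG8 above UPF3B. The remaining neighbours did not differ beyond their spread. The 9 pairs that did not pass were SMG1 with UPF1 and SMG9, UPF1 with SMG9 and SMG5, SMG9 with SMG5 and UPF3A, and the 3 pairs among UPF3B, UPF2 and SMG6.

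Restricted to protein-coding transcripts, the order changed for the genes with much noncoding RNA. SMG9, ranked 3 over all transcripts, had a coding level of 5.25 and 7.96, and UPF3A was at 7.58 and 8.41. UPF1 (23.6 ± 3.52), SMG5 (22.8 ± 1.80) and SMG1 (19.7 ± 0.208) then had the highest levels, SMG8 followed with 12.7 ± 0.970, and the other 5 genes lay between 5.67 for UPF2 and 7.998 for UPF3A (means, n = 2). By this measure 27 of 36 pairs also passed the call, of which 23 had passed it over all transcripts. The order was opposite in 3 of these 23: SMG8 was above UPF3A and above SMG9, and SMG5 was above SMG1. UPF3A and UPF3B no longer passed the call, as their coding levels were 7.58 and 7.91 in replicate 1 and 8.41 and 5.81 in replicate 2.

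**Figure D2:**
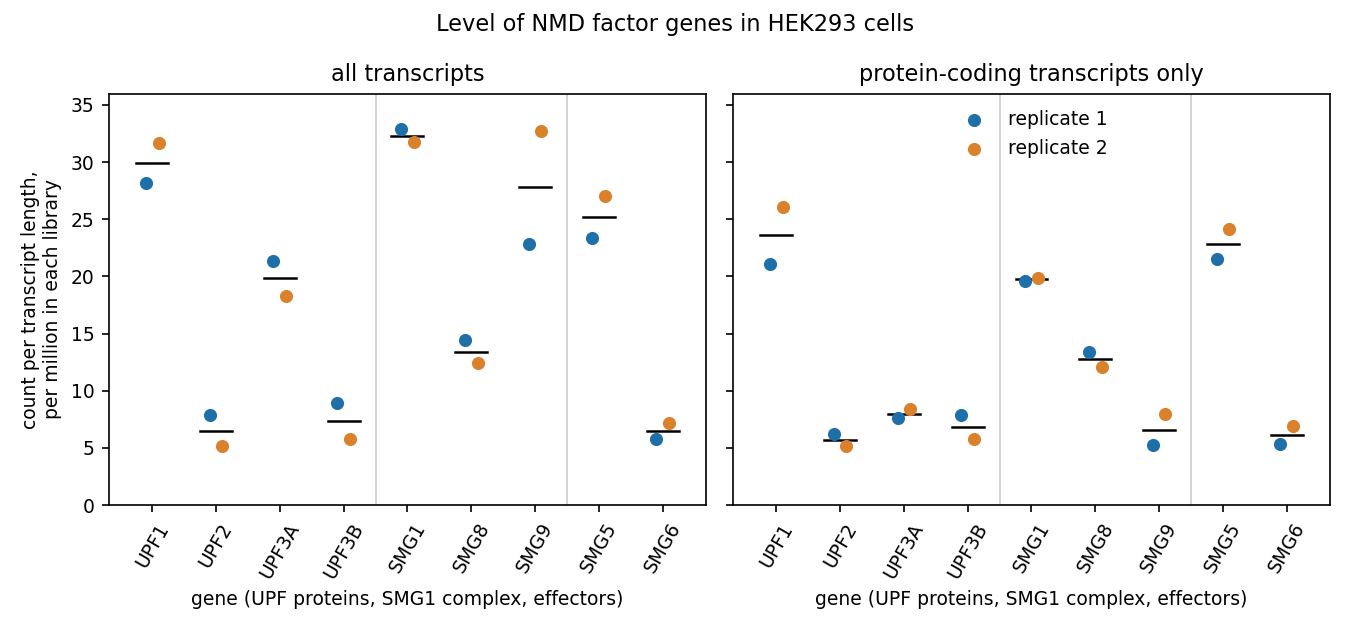
Level of each gene (y axis, estimated count per transcript length, per 1000000 in each library) over all transcripts on the left and over protein-coding transcripts on the right; points are the libraries and lines their means. SMG9 and UPF3A stand at 27.8 and 19.8 on the left but at 6.60 and 7.998 on the right.

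Gene totals in normalised counts, the authors' counts divided by a size factor per library, were 922.7 and 727.1 for UPF2, 935.4 and 800.6 for UPF3A, 533.4 and 369.6 for UPF3B and 6776 and 6505 for SMG1. They were 2764 and 3052 for SMG5, 817.4 and 937.5 for SMG6, 1208 and 1069 for SMG8, and 840.1 and 1083 for SMG9. Totals of 4 genes were higher in replicate 2 and those of 5 were higher in replicate 1. None of the 9 totals differed by over 2-fold, against 0.372% of 10757 protein-coding genes with several listed transcripts and at least 100 normalised counts in both libraries. The median log2 difference (replicate 2 minus replicate 1) was -0.06 over the 9 genes and -0.11 over the 10757 genes. It was most negative for UPF3B, at -0.53, and most positive for SMG9, at 0.37.

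The annotation assigns each transcript to a class: protein-coding, predicted NMD substrate, retained intron, or no defined coding sequence (CDS). The 92 transcripts comprised 43 protein-coding transcripts, 23 with a retained intron, 23 without a defined CDS and 3 predicted NMD substrates. Protein-coding transcripts held 88.8% of the summed counts of the 9 genes in replicate 1 and 89.6% in replicate 2. Transcripts with a retained intron held 8.23% and 8.36%, those without a defined CDS 2.73% and 1.93%, and predicted NMD substrates 0.201% and 0.123%.

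By gene, the protein-coding share of normalised counts was above 96% in both libraries for UPF2, UPF3B, SMG5, SMG6 and SMG8, with means of 98.4% ± 2.24, 98.0% ± 2.76, 98.3% ± 0.414, 98.3% ± 0.730 and 99.1% ± 0.601 (SD, n = 2). It was 93.4% ± 1.28 for UPF1 and 88.5% ± 0.103 for SMG1. SMG9 and UPF3A stood apart, with 57.5% and 55.8% for SMG9 and 43.7% and 51.9% for UPF3A. With counts divided by length, which gives short transcripts more weight, the mean protein-coding share was 23.6% for SMG9, 40.7% for UPF3A and 61.1% for SMG1, while the other 6 genes stayed at 78.6% or above. The median over the 9 genes was 98.0%, beside 91.7% over the 10757 genes. A protein-coding share under 50% in both libraries was found for 0 of the 9 genes and for 7.76% of the 10757; UPF3A was under it in replicate 1 alone.

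**Figure D3:**
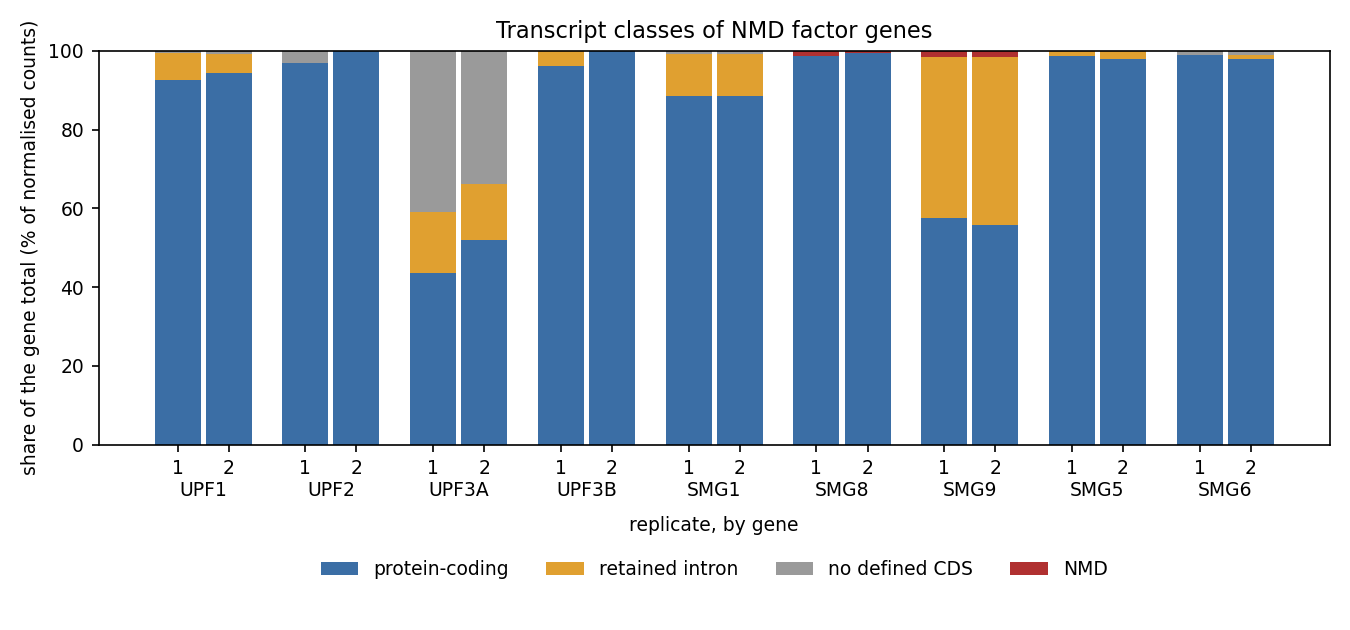
Share of each transcript class (y axis, % of the normalised counts of the gene) in replicates 1 and 2 of each gene; bars add to 100%. Retained-intron transcripts made up 41.0% and 42.7% of SMG9, and transcripts without a defined CDS 40.9% and 33.8% of UPF3A.

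Retained-intron transcripts reached 10% of the gene in both libraries for 3 of the 9 genes, UPF3A, SMG1 and SMG9, against 16.7% of the 10757 genes. SMG9 had 41.0% (interval 37.5 to 44.4%) and 42.7% (interval 39.8 to 45.5%) of its counts on them. Among these, SMG9-210 had 153.3 and 197.2 normalised counts and SMG9-203 had 135.9 and 150.1. Both are short, with 538 and 1401 nt against 5491 nt for SMG9-201. Per length, retained-intron transcripts therefore made up 74.5% of SMG9 and SMG9-210 was its leading transcript in both libraries.

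SMG1 had 10.6% and 10.9% of its counts on retained-intron transcripts, the highest being SMG1-216 with 346.4 and 358.4 normalised counts. These shares differed by less between the libraries than those of the long coding transcripts of SMG1 did. UPF1 had 6.84% and 4.93%, and SMG5 had 1.38% and 1.97%. Reads from unspliced precursor RNA and from a stable mRNA that keeps an intron cannot be told apart in total RNA.

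A share of at least 10% without a defined CDS in both libraries was found for 1 of the 9 genes, UPF3A, against 9.6% of the 10757 genes. UPF3A-204, of 1791 nt in 6 exons, carried most of it, with 278.0 and 190.4 normalised counts, or 29.7% and 23.8% of UPF3A. In replicate 1 it was level with the coding UPF3A-202 at 278.6, and in replicate 2 it was below 244.7. The retained-intron transcript UPF3A-212 added 113.2 and 89.0 normalised counts. The 3 coding transcripts of UPF3A thus held a minority of its counts in replicate 1 (interval 40.4 to 47.0%), while in replicate 2 the interval of 48.5 to 55.3% included 50%.

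Predicted NMD substrates were listed for only 3 of the genes, SMG1, SMG8 and SMG9, with 1 transcript each, so for the other 6 their share was 0 by annotation. SMG9-206 had 12.7 and 17.3 normalised counts, or 1.51% and 1.59% of SMG9. SMG8-205 had 16.6 and 5.58, or 1.37% and 0.522% of SMG8. SMG1-213 had 7.25 in replicate 1 and was at 0 in replicate 2, where counting error leaves room for at most 0.0428% of SMG1. None of the 3 reached 2% of its gene in either library. A share of at least 10% in both libraries was found for 0 of the 9 genes and for 14.4% of the 10757 genes. These steady-state counts do not say how much of such a transcript was made or degraded.

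The highest transcript was the same in both libraries for 6 of the 9 genes, and it differed for UPF1, UPF3B and SMG9. Among the 10757 genes it differed in 15.6%. SMG5-201 held 98.6% and 98.0% of SMG5, SMG6-201 97.6% and 95.4% of SMG6, SMG8-201 97.4% and 91.1% of SMG8, and UPF2-202 85.7% and 92.4% of UPF2. A single annotated mRNA thus dominated each of these 4 genes in both libraries. UPF3A-202 led UPF3A with only 29.8% and 30.6%, and with counts divided by length UPF3A-204, without a defined CDS, led it in both libraries (26.2% and 21.3%, against 19.8% and 20.7% for UPF3A-202). SMG1-201 led SMG1 with 70.7% and 58.4%.

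Single transcripts varied more than gene totals. Of the 48 transcripts whose mean reached 10 normalised counts, 10 differed over 2-fold between the libraries. Among the 10757 genes, 32% of the 55270 transcripts with such a mean did so. The largest of these by count was SMG8-202, which was at 0 in replicate 1 and at 89.1 normalised counts in replicate 2, and it encodes a protein of 991 amino acids, the length given by SMG8-201. UPF2-203, a coding transcript, had 56.41 and 28.02, and SMG9-208, a retained-intron transcript, had 6.18 and 55.9. UPF2-204, without a defined CDS, and UPF3B-203, with a retained intron, went the other way, from 29.2 and 20.9 in replicate 1 to 0 in replicate 2. The sums of SMG8 coding transcripts, 1192 and 1064, differed by far less than SMG8-202 did.

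**Figure D4:**
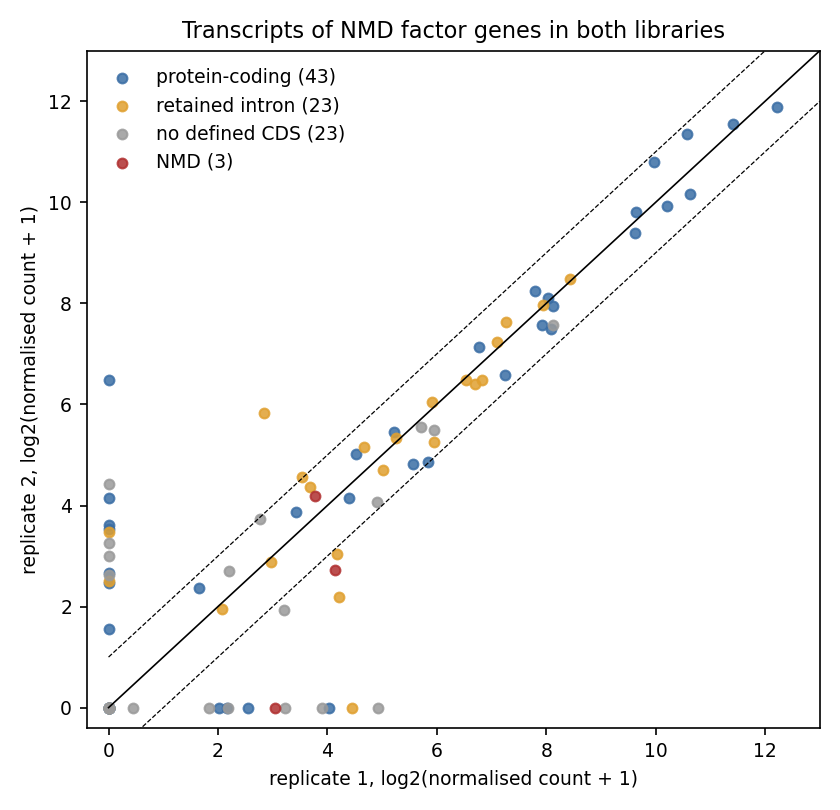
All 92 transcripts, each as log2(normalised count + 1) in replicate 1 (x axis) and replicate 2 (y axis), coloured by class, with the line of equality solid and 2-fold differences on that scale dashed. Transcripts near the top right lie within the dashed lines, while 25 transcripts lie on an axis because they were at 0 in a single library.

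2 of the genes have close copies elsewhere in the genome, and their counts depend on how shared reads were divided. Copies of SMG1 are annotated as 9 genes under 7 symbols, SMG1P1 to SMG1P7. The symbols SMG1P5 and SMG1P7 each name a pseudogene and a long noncoding RNA gene that overlaps it in position. Together the 9 genes had 4648 and 4173 normalised counts beside 6776 and 6505 for SMG1. SMG1 thus held 59.3% and 60.9% of the sum, or 60.1% ± 1.14 (SD, n = 2), and 42.0% when counts were divided by length. Of the 16013 stretches of 50 nt in SMG1-201, 16.9% also occur in these copies, all of them between the stretches starting at positions 163 and 4518, in the first part of the mRNA. The 3 copies of UPF3A, UPF3AP1, UPF3AP2 and UPF3AP3, summed to only 34.9 and 25.7 normalised counts, although 42.4% of the stretches in UPF3A-202 occur in them. In SMG9-201 0.202% of the stretches occur in other genes, and for UPF1, UPF2, UPF3B, SMG5 and SMG6 none occurs in another gene on the same strand.

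SMG6 overlaps HIC1, which encodes a transcriptional repressor, on the opposite strand, and 29.2% of the stretches in SMG6-201 occur in transcripts of other genes in reverse. HIC1 had 148.6 and 250.4 normalised counts. Whether strand was used in counting was not given in the sources used here, so reads over the overlap may belong to either gene. In SMG8-201, 11.9% of the stretches are shared with a readthrough gene, ENSG00000265303, which was at 0 in both libraries.

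In the annotation the 9 genes had long coding regions. The coding length of the MANE Select transcript, the agreed reference transcript of a gene, had a median of 3048 nt beside 1449 nt over 10293 genes, and 7 of the 9 were above that. The range ran from 1428 nt in UPF3A to 10983 nt in SMG1, which has 63 exons. The 3′ UTR, whose length is known as a feature of some NMD targets, had a median of 1363 nt beside 1419 nt. It was longest in SMG1 (4709 nt) and SMG9 (3613 nt) and shortest in SMG8 (228 nt), so the genes did not share a long 3′ UTR. At least 1 upstream ATG was present in 4 of the 9 genes, UPF2, SMG1, SMG5 and SMG9, or 44.4% beside 40.4%. A splice junction over 50 nt after the stop codon, the classical NMD feature, was present in 0 of the 9 reference transcripts and in 0.185% of the 10293. Only reference transcripts were examined, those of the 9 genes are all annotated as protein-coding, and the feature is rare among reference transcripts. The 0 therefore does not show whether mRNAs of these genes are NMD targets.

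The partners of these factors were given by fixed lists. Their levels, and those of the NMD target genes below, are over all listed transcripts. Levels over protein-coding transcripts alone, which were much lower for SMG9 and UPF3A, were not taken for these lists. In the exon junction complex, the RNA-binding protein RNPS1 had a level of 218.7 and 240.1, and the core members RBM8A and EIF4A3 had 60.9 and 54.3 and 52.7 and 54.1. These 3 of 6 genes had a higher mean level than each of the 9 NMD factors. CASC3 had 32.3 and 30.9, close to SMG1, and the paralogues MAGOH and MAGOHB had 22.2 and 17.7 and 17.7 and 13.4. The median over the list was 42.5 beside 19.8 for the 9 NMD factors and 7.69 for 15537 protein-coding genes.

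Among release factors and cap-binding proteins, GSPT1 and ETF1, which terminate translation and meet UPF1 at the stop codon, had mean levels of 142.7 and 83.3. NCBP2, the small subunit of the nuclear cap-binding complex, had 33.1. These 3 of 6 genes were above every NMD factor in mean level, although NCBP2 in replicate 2, at 26.8, was below SMG9, SMG1, UPF1 and SMG5 in that library. CTIF, NCBP1 and GSPT2 had 12.4, 11.2 and 2.69, and GSPT2, a paralogue of GSPT1, was below all 9 NMD factors. The median of the list was 22.7.

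The other NMD and decay factors had a median level of 17.0 over the 10 genes analysed here. The ATPases RUVBL2 and RUVBL1, which act on the SMG1 kinase family, were highest with 118.0 and 79.9, and the decapping scaffold EDC4 had 40.5. PNRC2 and the decapping enzyme DCP2 had 26.0 and 22.9. NBAS, DCP1A and the exonuclease XRN1 lay between 9.74 and 11.0, and DCP1B and the helicase DHX34 had 5.81 and 3.84.

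Of 5 genes known as NMD targets, ATF4, which has upstream reading frames, had a level of 431.3 and 388.8, and GAS5, a host of small nucleolar RNAs, had 173.2 and 150.2. GADD45A had 34.0 and 33.9, TBL2 had 13.6 and 15.8, and GADD45B had 6.11 and 6.32. Levels of targets ran over a wider range than those of the factors, and with no sample in which NMD was blocked they do not show how far NMD lowered them.

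**Figure D5:**
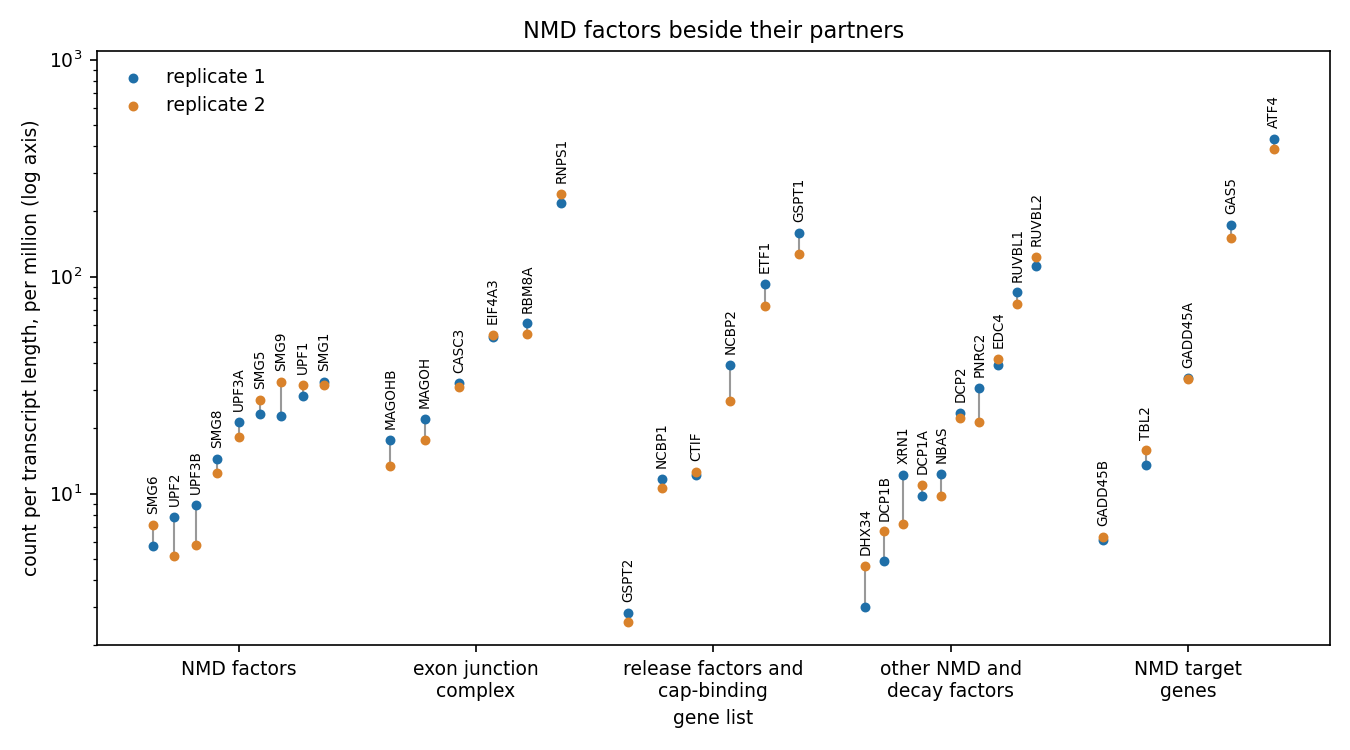
Level (y axis, log scale, estimated count per transcript length, per 1000000) of the 9 NMD factor genes, 3 partner lists and 5 NMD target genes, with 1 point per library joined by a line for each gene. The NMD factors span 6.47 to 32.3 in mean level, while RNPS1, GSPT1, RUVBL2, GAS5 and ATF4 lie above 100.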

How the data were processed

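RNA was extracted with TRI reagent and treated with DNase, and TruSeq total RNA libraries were made after rRNA depletion, per the labels. The deposited tables give an estimated count per transcript, for which the authors used RSEM; reads shared by several transcripts are split between them. The second deposited value, EB-Seq-Normalised per the file headers, is a signal made by the authors: the RSEM value over a single size factor for each library (0.945 and 1.08), called normalised count here. The submitters' processing notes list FastQC, STAR 2.7.0d, RSEM 1.3.3 and R 3.6.3, and the study names Ensembl release 104. The strand setting was not given in the sources used here.

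Identifiers stripped of their version were looked up in GENCODE v44 (GRCh38), and 202217 of 206696 transcripts were found, with 96.9% and 96.8% of the counts. Of the 92 transcripts of the 9 genes, 10 had another version, so their lengths may differ from the models counted. Normalised counts were summed per gene. For comparisons between genes, estimated counts were divided by GENCODE length and scaled to 1000000 per library over matched transcripts, with no effective length. Intervals are exact (Clopper-Pearson) 95% intervals on rounded estimated counts, and limits for a 0 are 3 counts of the total. Both cover counting error only and leave out the error of assigning reads that several transcripts share. No test was run, since 2 libraries of 1 group cannot give a sign-flip p under 0.5. Shared sequence was found by exact stretches of 50 nt over all GENCODE v44 transcripts.

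The members, partner lists and markers were chosen with earlier results of these data known. Named transcripts held at least 10% of their gene or were its highest predicted NMD substrate; others, such as SMG8-202, SMG9-208, UPF2-203, UPF2-204, UPF3B-203, SMG1-216 and the copies of UPF3A, were chosen after their values were seen. Segments were named where they separated coding transcripts of at least 5% of the gene. The calls of a changed leading transcript and of a 2-fold difference were tested on simulated data, with counts drawn for the same 10757 genes. Those counts held counting error only, without errors of read assignment or spread between libraries. The changes put in were larger than the calls require. The simulation thus does not show how often the calls err in these libraries. Python 3.11.15, pandas 2.3.3, numpy 2.4.6, scipy 1.17.1 and matplotlib 3.10.9 were used. Each library alone, other lengths, other transcript sets and other totals were tried as alternatives. Tables of METTL8 transcripts were not used, and a gene of the list of other NMD and decay factors is not reported here.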

Additional observations from a re-analysis of the deposited data

How the results depend on the processing

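The median protein-coding share over the 9 genes, 98.0%, was 89.5% with counts divided by length, which gives short noncoding transcripts more weight, and 71.1% over transcripts of the same version in GENCODE v44, which leaves out the reference transcript of 8 of the 9 genes. It ranged from 96.1 to 97.8% with a single library. The log2 ratio of UPF3A to UPF3B, 1.43, was 0.22 over protein-coding transcripts and no longer passed the call, as coding transcripts were 40.3% of the UPF3A level and 93.2% of the UPF3B level; with a single library it ranged from 1.26 to 1.66. The share of SMG1 beside its copies, 60.1%, was 42.0% per length and 59.3 to 60.9% with a single library. The long-loop share of UPF1 ranged from 30.6 to 51.0% with a single library, and was 40.9% per length and 40.1% over all transcripts with or without the segment, an alternative added after seeing the data; the planned restriction to coding transcripts coincides with the value reported. The median share of predicted NMD substrates is 0 by annotation, as 6 of the 9 genes have no such transcript listed. Pairs passing the call numbered 27 to 29, but not all were the same pairs: 26 of the 27 also passed with an effective length, 23 over protein-coding transcripts (3 in the opposite order), 23 over transcripts of the same version (1 in the opposite order) and 22 without division by length (1 in the opposite order). Genes with the same leading transcript numbered 6 or 7. No paired analysis was possible because there is 1 group. Without division by length the UPF3A to UPF3B log2 ratio was 0.94, and with an effective length 1.62. An effective length, 200 nt shorter than the annotated length, gave SMG9 the highest mean level (17.8) and SMG1 the next (17.2). Per length, the protein-coding share moved by over 1 SD in all 9 genes, and over protein-coding transcripts the level did so in 4 of 9. A mean over 2 libraries gives wide errors, and UPF1 transcripts show it. With replicate 1 alone the interval of the long-loop share includes an equal division. With replicate 2 alone the long-loop form is the lower one.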
